A study of Mus musculus with 12 samples.

Results

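This account covers 9 genes of the Akt and mTOR pathway, followed by RNA sequencing in 9 mouse mammary tumours and 3 preparations of mammary epithelium. The genes are the kinases Akt1 and Akt2, the mTOR kinase gene Mtor, and the complex genes Rptor, Rictor, Deptor and Akt1s1. The others are Eif4e, the gene of a cap-binding factor, and Eif4ebp1, the gene of a protein that binds that factor. The 9 genes were taken by name as rows of the count files. All were found among 54658 genes and passed the filter on low counts that left 21456 genes for testing. The tumours had the genotype Trp53R245W/+, a missense change in 1 allele of Trp53, the gene of p53; epithelium enriched from mammary glands was WT. Both groups came from female mice of a C57BL/6J X BALB/cJ cross (F1 hybrid), and the labels name no drug treatment, age or time. The series title speaks of a somatic breast cancer model and of driver events that activate PI3K/Akt/mTOR signalling; the promoter or cells in which the somatic change was made are not stated there or in the labels. Tumours are called by their label numbers, which are 1, 4, 5, 14, 17, 20, 21, 24 and 27, and epithelium libraries by 1, 2 and 3; values listed for all libraries of a group follow this order. Genotype followed the group, and so did the prefix of the library titles, so tumour state, the p53 change and any batch behind that prefix cannot be told apart. Nothing in the labels says that each library came from a different animal, so p-values measure the spread between these samples.

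Akt kinases carry growth factor signals from PI3K, and mTOR is a kinase that works in a pair of complexes. The complex mTORC1, built around raptor, promotes protein synthesis and cell growth, while mTORC2, built around rictor, phosphorylates Akt itself. DEPTOR binds and restrains mTOR in both complexes, and PRAS40, the product of Akt1s1, restrains mTORC1 until Akt phosphorylates it. Major targets of mTORC1 are the eIF4E-binding proteins, which in their unphosphorylated form hold the cap-binding factor eIF4E away from the translation machinery. Much of this control acts on proteins, by phosphorylation, and RNA counts do not measure it.

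Promoter windows (250 bases before to 50 after a transcript start, RefSeq, GRCm38.p6) were given for 7 of the 9 genes, 12 windows in all, and a search for a pair of short motifs placed 4 matches in 3 of them. The motifs, the E-box CACGTG, which reads the same on both strands and is the site of Myc family factors, and the ETS core CCGGAAG, searched on both strands, were picked after the windows had been seen. They are printed to show the letters upstream of Eif4e, Mtor and Akt1s1, with the motif in capitals.

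Eif4e, upstream match, chr3:138527028-138527057, plus strand: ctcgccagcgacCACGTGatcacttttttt

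Eif4e, downstream match, chr3:138527192-138527221, plus strand: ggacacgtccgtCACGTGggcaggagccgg

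Mtor, chr4:148448333-148448363, plus strand: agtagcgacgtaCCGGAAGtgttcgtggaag

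Akt1s1, chr7:44850312-44850342, plus strand, motif on the minus strand: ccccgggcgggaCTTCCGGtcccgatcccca

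The E-boxes lay 228 and 64 bases before the transcript start of the second Eif4e window, inside an exon of another Eif4e transcript of GENCODE release M21. The ETS core lay 237 bases before the Mtor start, outside the annotated gene, and 48 bases before the Akt1s1 start, in an intron of a longer Akt1s1 transcript. Of 32851 promoter windows of this length, 7.15% held the E-box and 8.86% the ETS core, so both are common. A match describes letters, and binding was not measured here.

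The libraries held 19695318 to 33600076 counts in genes, and the 9 genes had from 291 counts (Eif4ebp1, epithelium 2) to 9887 counts (Akt1, tumour 1) in a library. Tumour 4 stood apart, since 52.0% of alignments were not unique there, and Rn7sk, a small nuclear RNA gene, took 22.6% and mitochondrial genes 11.2% of the counts in genes. Alignments at more than 1 position, which were not assigned to genes, made up 17.1% to 52.0% in tumours and 8.59% to 12% in epithelium, and alignments outside genes 8.08% to 32.3% and 39.9% to 41.5%. Markers of luminal epithelium were present in both groups, with summed levels of 1116 to 5755 counts per 1000000 (CPM) in tumours and 1814 to 2819 CPM in epithelium. These sums were above epithelium in 6 tumours and below it in 2, and 2 of 6 genes were called higher. All 5 T and NK cell and all 4 B cell markers were lower in tumours, with sums of 0.538 to 16.2 CPM against 145 to 165 CPM and 1.54 to 43.2 CPM against 360 to 494 CPM. Summed endothelial markers (140 to 492 against 682 to 785 CPM, 3 of 5 genes called lower) and adipocyte markers (12.4 to 116 against 316 to 489 CPM, 1 of 5 called lower) were below epithelium in all 9 tumours. Sums of fibroblast and of basal markers were below it in 7 tumours and above it in 2, with no gene called. Those of macrophage markers were above it in 6 and below it in 1, with 1 of 5 genes called higher. The 6 proliferation markers were all higher (466 to 2858 CPM against 122 to 199 CPM). The part of these cell types and of proliferation in the results below was not tested. Trp53 itself had 48.5 ± 19.7 CPM (SD, n = 9) in tumours and 43.8 ± 1.99 CPM (n = 3) in epithelium, and a count of reads over the gene does not show which allele they come from.

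Levels are CPM scaled by edgeR's trimmed mean of M values, and fold changes are log2 ratios, tumours relative to epithelium, each with a standard error (SE) and an edgeR quasi-likelihood p adjusted over all genes tested, called under 0.05. Of the 9 genes, 2 were higher in tumours: Eif4ebp1 and Akt1s1, both encoding inhibitors at the mTORC1 end of the pathway. None was called lower by edgeR, also at an unadjusted p under 0.05, or by DESeq2, and 1 was by limma-voom (Rictor, below). Over all genes tested, 20.3% were called, 8.89% as higher and 11.4% as lower, so the share of these genes called (22.2%) was near that of all genes. The same 2 genes lay above all 3 epithelium libraries in all 9 tumours, as did 10.2% of all genes, and none lay below them in all 9, against 14.1% of all genes. The median fold change of the 9 genes was 0.40 and that of all genes 0.17. Under upper quartile scaling these medians were 0.29 and 0.07. In bulk tissue, fewer cells of a type and less RNA per cell cannot be told apart.

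**Figure D1:**
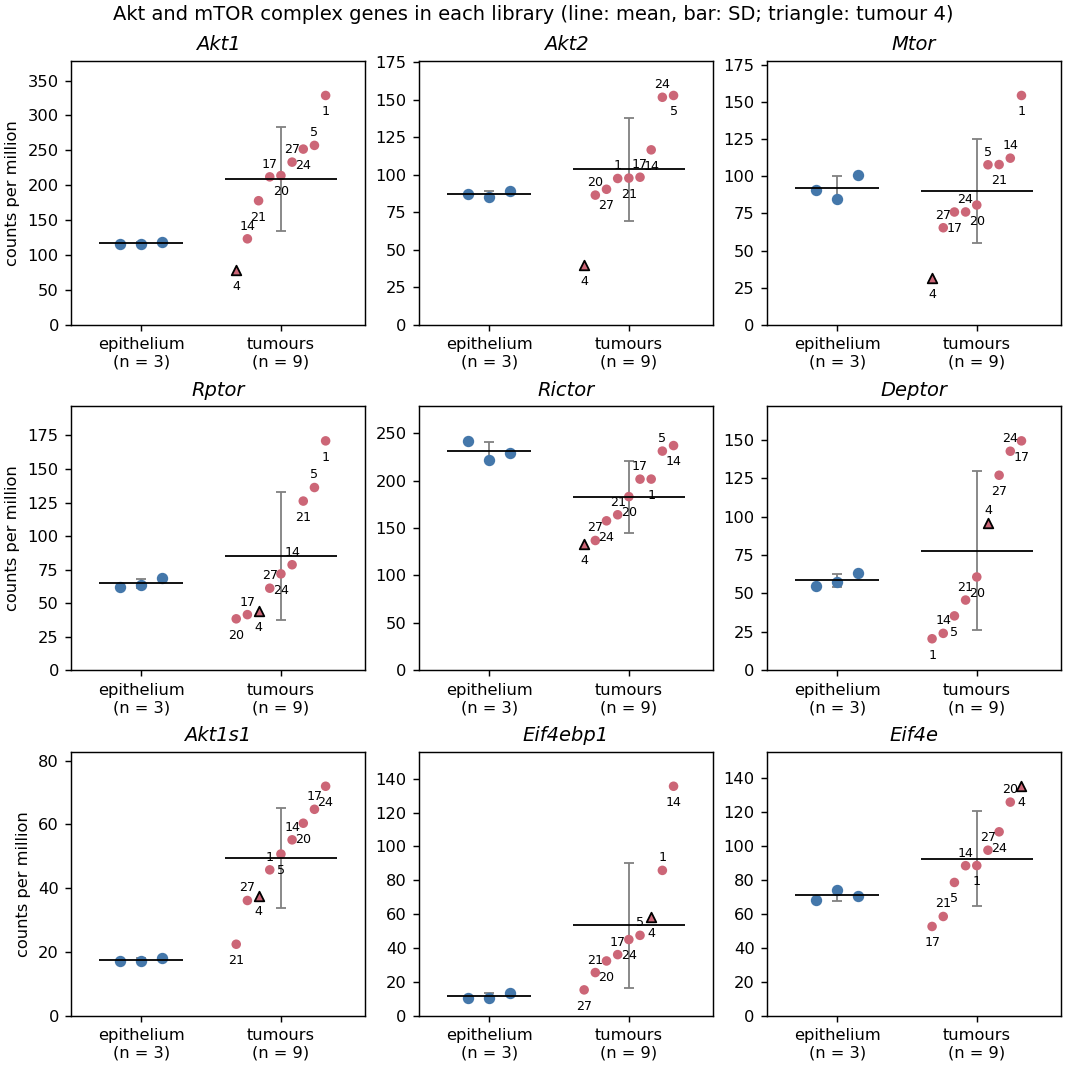
Level of each of the 9 genes in CPM (vertical axis from 0, separate scale per panel) in 3 epithelium libraries and 9 tumours, ordered by level and numbered; the line is the mean, the bar the SD and the triangle tumour 4. Akt1s1 and Eif4ebp1 lay above epithelium in every tumour, while Deptor spread from 20.4 to 149 CPM on both sides of it.

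Eif4ebp1 (chromosome 8, 27260329 to 27276674, GRCm38, plus strand), the gene of 1 of the eIF4E-binding proteins, had 10.6, 10.1 and 13.3 CPM in epithelium. In tumours 1, 4, 5, 14 and 17 it had 85.8, 58.4, 47.4, 136 and 36 CPM, and in tumours 20, 21, 24 and 27 32.3, 25.4, 44.9 and 15.2 CPM. Every tumour was above every epithelium library, tumour 27 only by a small margin and tumour 14 by the widest. The means were 53.4 ± 37.0 CPM (SD, n = 9) and 11.3 ± 1.70 CPM (n = 3), a log2 fold change of 2.24 (SE 0.60, edgeR adjusted p = 0.0208). The call was lost without epithelium 1, 2 or 3 (edgeR adjusted p = 0.0948, 0.0957 and 0.0760), where 8.97%, 9.32% and 9.15% of all genes were called. A covariate for alignments outside genes, a share in which the groups do not overlap, left 3.07% of all genes called and gave Eif4ebp1 an edgeR adjusted p of 0.315. The call held without each tumour, with DESeq2 (25.5% of all genes called) and with limma-voom (49.5% called). The related gene Eif4ebp2 had a higher mean CPM than Eif4ebp1, with 66.3 ± 33.4 CPM in tumours and 48.7 ± 2.71 CPM in epithelium. Corrected for exonic length, the order turned in tumours, with 11.5 CPM per kilobase for Eif4ebp2 and 24.3 for Eif4ebp1. In epithelium it held, with 8.42 and 5.17. The log2 fold change of Eif4ebp2 was 0.45 (SE 0.41, edgeR adjusted p = 0.458), with 6 tumours above all epithelium libraries and 2 below. Eif4ebp3 had 0.809 and 0.952 CPM (edgeR adjusted p = 0.712).

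Eif4e (chromosome 3, 138526179 to 138559696, plus strand), the cap-binding factor that Eif4ebp1 protein holds back, changed less. It had 67.8, 74.1 and 70.6 CPM in epithelium, and 88.3, 135, 78.3, 88.2, 52.4, 126, 58.3, 108 and 97.3 CPM in the 9 tumours. Tumours 17 and 21 lay below all epithelium libraries and the other 7 above them. The log2 fold change was 0.38 (SE 0.29, edgeR adjusted p = 0.359). Within a library, the ratio of Eif4ebp1 to Eif4e counts does not depend on scaling: it was 0.157, 0.137 and 0.188 in epithelium and 0.156 (tumour 27) to 1.54 (tumour 14) in tumours. It lay above all epithelium libraries in 8 of 9 tumours, 3.14-fold higher by the geometric mean, with an exact two-sided permutation p of 0.0273 (0.0682 adjusted over 5 ratios). Without tumour 27, the 1 tumour that lay within the epithelium range, the log2 difference was 1.86 in place of 1.65 and the adjusted exact permutation p was 0.0303. It was 0.0606 to 0.0909 without any other tumour and 0.197 for a difference of medians. Without an epithelium library, where fewer splits exist, it was 0.182 to 0.242. The 1 alternative that passed thus left out the tumour that went against the difference.

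Akt1s1 (chromosome 7, 44848991 to 44855421, plus strand), which encodes PRAS40, had 17.2, 17.1 and 18.2 CPM in epithelium. In the 9 tumours it had 45.7, 37.7, 50.7, 55.2, 64.8, 60.4, 22.4, 72.0 and 36.1 CPM. Tumour 21 came closest to epithelium and tumour 24 was highest. The means were 49.4 ± 15.6 CPM (n = 9) and 17.5 ± 0.598 CPM (n = 3), a log2 fold change of 1.50 (SE 0.34, edgeR adjusted p = 0.00838). Without epithelium 1 or 2 the edgeR adjusted p was 0.0509 and 0.0501, without epithelium 3 it was 0.0455, and with the covariate 0.219. Its exons share 89 bases (2.90%) with Tbc1d17 on the opposite strand, and the strand setting of the counts is not stated in the labels.

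Mtor (chromosome 4, 148448611 to 148557683, plus strand), the kinase itself, had 91.0, 84.7 and 101 CPM in epithelium. In the 9 tumours it had 155, 31.7, 108, 112, 76.0, 80.7, 108, 76.0 and 65.4 CPM. Tumours 1, 5, 14 and 21 lay above and the other 5 below all epithelium libraries, so Mtor went both ways. The log2 fold change was -0.03 (SE 0.35, edgeR adjusted p = 0.961), and its sign turned without tumour 4 (0.09). The ratio of Akt1s1 to Mtor counts was 0.181 to 0.202 in epithelium and 0.207 (tumour 21) to 1.19 (tumour 4) in tumours, higher in all 9 tumours and 2.95-fold by the geometric mean. Its exact two-sided permutation p of 0.00909 is the smallest that 9 against 3 libraries allow (0.0455 adjusted over 5 ratios). The adjusted exact permutation p was 0.197 for a difference of medians. It was 0.0606 without tumour 1, 4, 5, 17, 20, 21 or 24, and 0.182 without an epithelium library. Each library left out leaves fewer splits, so 1 ratio alone could not fall under 0.05 after adjustment, however well the groups separate. Without tumour 14 or 27, where a second ratio had the same adjusted value, it was 0.0303.

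Rptor (chromosome 11, 119602905 to 119899576, plus strand), the gene of raptor, the scaffold that defines mTORC1, had 62.0, 63.5 and 68.4 CPM in epithelium. In the 9 tumours it had 171, 44.2, 136, 78.6, 41.4, 38.3, 126, 71.8 and 61.1 CPM. Tumours 1, 5 and 21 were high, tumours 4, 17 and 20 low, and 5 tumours lay above and 4 below all epithelium libraries. The log2 fold change of 0.40 (SE 0.46, edgeR adjusted p = 0.553) was smaller than its SE.

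Rictor (chromosome 15, 6708379 to 6800401, plus strand), which defines mTORC2, was the only 1 of the 9 genes that no tumour had above every epithelium library. It had 242, 222 and 229 CPM in epithelium, and 202, 134, 231, 237, 202, 183, 164, 158 and 137 CPM in the 9 tumours. Tumours 5 and 14 lay within the epithelium range and the other 7 below it. The log2 fold change was -0.34 (SE 0.22, edgeR adjusted p = 0.291); limma-voom with group weights, which called 49.5% of all genes, put it at -0.36 (adjusted p = 0.0391). The ratio of Rptor to Rictor counts, a comparison of the scaffolds of the complexes, was 0.256 to 0.299 in epithelium and 0.205 (tumour 17) to 0.847 (tumour 1) in tumours. It was above epithelium in 7 tumours and below it in tumours 17 and 20 (exact two-sided permutation p = 0.236, 0.295 adjusted over 5 ratios).

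Deptor (chromosome 15, 55112317 to 55259271, plus strand), the inhibitor shared by both complexes, had the widest spread over tumours of the 9 genes by the SD of log2 CPM (1.11); from lowest to highest, Eif4ebp1 had the wider range (8.93-fold). It had 54.9, 57.6 and 63.1 CPM in epithelium. Tumours 17, 24, 27 and 4 had 149, 143, 127 and 95.8 CPM, tumour 20 had 60.7 CPM, and tumours 21, 5, 14 and 1 had 45.6, 35.3, 24 and 20.4 CPM. So 4 tumours were above all epithelium libraries, 4 were below them, and 1 lay within their range, with a 7.30-fold distance from lowest to highest. The log2 fold change of 0.41 (SE 0.59, edgeR adjusted p = 0.645) averages over these opposite deviations. Its exons share 303 bases (3.41%) with the transcript Gm9920 on the opposite strand. The ratio of Deptor to Mtor counts, inhibitor to kinase, was 0.604 to 0.680 in epithelium, a 1.13-fold range. In tumours 1, 14, 5 and 21 it was 0.132, 0.213, 0.328 and 0.423, and in tumours 20, 24, 27, 17 and 4 it was 0.752, 1.88, 1.94, 1.96 and 3.02, a 22.8-fold range. No tumour lay within the epithelium range, which also held for the ratios of Akt1s1 to Mtor, Rptor to Rictor and Akt2 to Akt1. How often this happens for ratios of other genes was not counted. The group means did not differ beyond the spread over tumours (log2 difference 0.21, exact two-sided permutation p = 0.818). Without tumour 4 the difference was -0.04.

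Akt1 (chromosome 12, 112653821 to 112674884, minus strand) had 116, 116 and 118 CPM in epithelium. In the 9 tumours it had 329, 78.2, 257, 123, 212, 214, 178, 252 and 233 CPM. It lay above epithelium in 8 tumours, tumour 14 only slightly, and below it in tumour 4. The log2 fold change was 0.84 (SE 0.36, edgeR adjusted p = 0.115), which did not pass. Without tumour 4, the library that stood apart, it was 0.95 (edgeR adjusted p = 0.0231, with 24.1% of all genes called), and with limma-voom on all 12 libraries 0.75 (adjusted p = 0.00908).

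Akt2 (chromosome 7, 27591552 to 27640826, plus strand) had 87.0, 85.1 and 88.8 CPM in epithelium. In the 9 tumours it had 97.5, 40.0, 153, 117, 98.3, 86.4, 97.7, 152 and 90.3 CPM. Tumours 5 and 24 were highest, tumour 4 lowest, and tumour 20 within the epithelium range (log2 fold change 0.25, SE 0.32, edgeR adjusted p = 0.606). The ratio of Akt2 to Akt1 counts was 0.737 to 0.751 in epithelium, and below that in 8 tumours (0.297 in tumour 1 to 0.602 in tumour 24), while tumour 14 had 0.946. The exact two-sided permutation p was 0.0818 (0.136 adjusted over 5 ratios). Without tumour 14, the 1 tumour that went against the difference, the adjusted exact permutation p was 0.0303, with a log2 difference of -0.68 in place of -0.57. It was 0.121 to 0.182 without any other tumour and 0.197 for a difference of medians. Without an epithelium library, where fewer splits exist, it was 0.242 to 0.303.

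**Figure D2:**
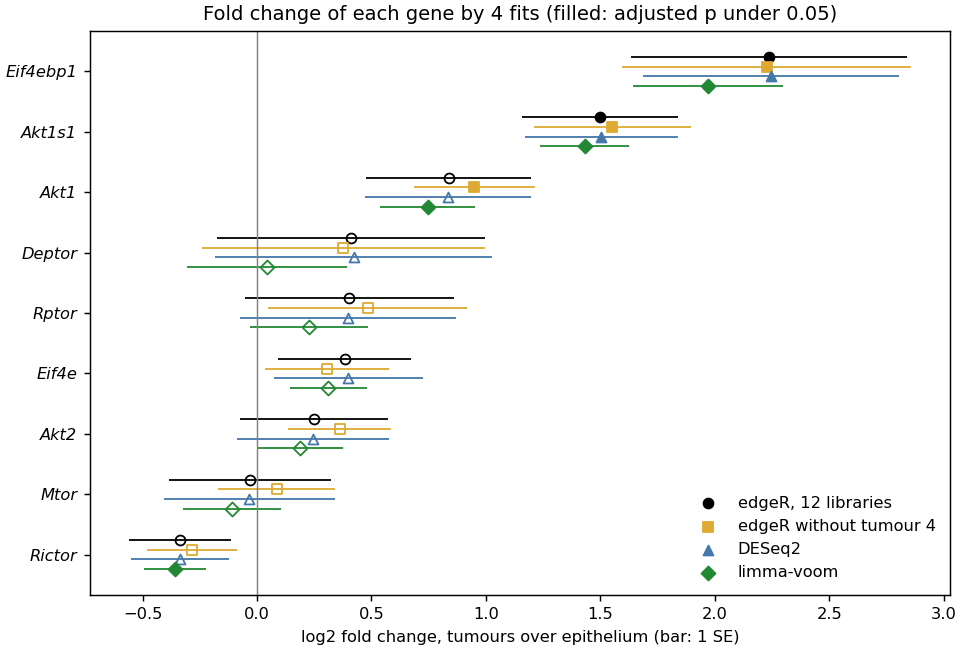
Log2 fold change of the 9 genes, tumours over epithelium (horizontal axis; bars are 1 SE), by edgeR with 12 libraries, edgeR without tumour 4, DESeq2 and limma-voom; filled symbols have an adjusted p under 0.05. Eif4ebp1 and Akt1s1 are filled in all 4 fits, Akt1 in 2 and Rictor in 1.

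Across the 9 tumours, the SD of log2 CPM was 1.11 for Deptor, 0.93 for Eif4ebp1 and 0.80 for Rptor, and 0.30 for Rictor, the lowest of the 9 genes. Genes of like level (mean log2 CPM within 0.5) had a median SD of 0.60 beside Deptor, 0.62 beside Eif4ebp1, 0.57 beside Rptor and 0.55 beside Rictor. The SD of Deptor exceeded that of 91.0% of its genes of like level, and the SD of Rictor that of 10.5%. No gene had a single tumour marked as an outlier by Dixon's ratio. Corrected for exonic length, Akt1 had the highest level in both groups, 50.9 ± 18.2 CPM per kilobase in tumours and 28.5 ± 0.394 in epithelium. In epithelium Rictor (13.7 ± 0.598 CPM per kilobase), Akt2 (12.2 ± 0.260) and Eif4e (11.8 ± 0.524) came next, followed by Mtor (9.11 ± 0.795), Deptor (6.60 ± 0.471), Akt1s1 (5.70 ± 0.194), Eif4ebp1 (5.17 ± 0.775) and Rptor (4.80 ± 0.249). Of these neighbours in the order, Akt2 and Eif4e, Akt1s1 and Eif4ebp1, and Eif4ebp1 and Rptor overlapped between libraries. In tumours Eif4ebp1 was second with 24.3 ± 16.8 CPM per kilobase, then Akt1s1 (16.1 ± 5.09), Eif4e (15.4 ± 4.62), Akt2 (14.5 ± 4.83), Rictor (10.8 ± 2.24), Mtor (8.93 ± 3.46), Deptor (8.77 ± 5.82) and Rptor (6.34 ± 3.54). In tumours the ranges of every 2 neighbours in this order overlapped.

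**Figure D3:**
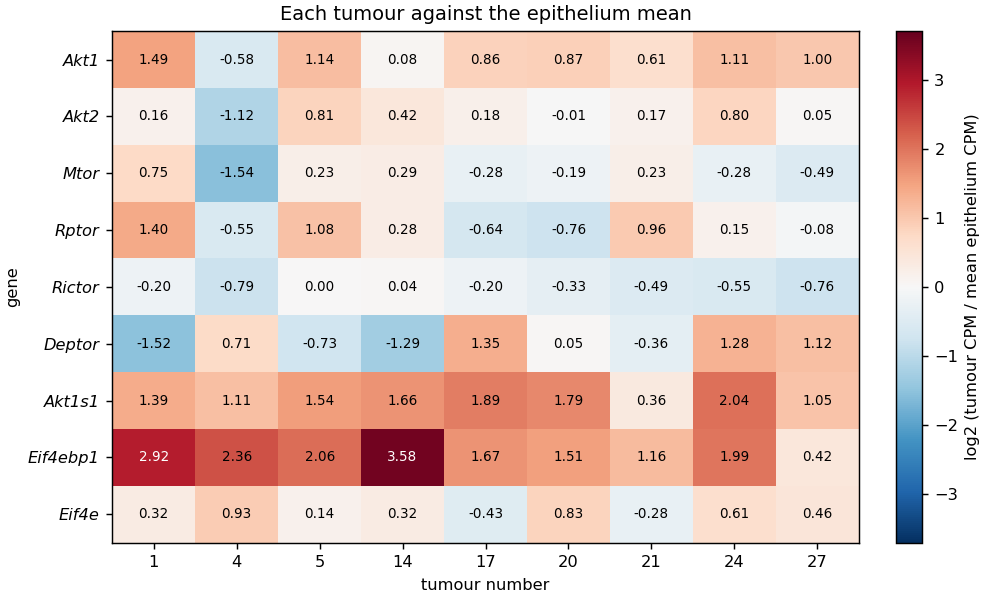
Log2 of each tumour's CPM over the mean epithelium CPM, for the 9 genes (rows) and 9 tumours (columns); red is above and blue below epithelium. Akt1s1 and Eif4ebp1 are positive in every column, and Deptor runs from -1.52 in tumour 1 to 1.35 in tumour 17.

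Tumour by tumour, the genes formed different combinations. In tumours 1, 5 and 14 the same 7 genes lay above all epithelium libraries, namely Akt1, Akt2, Mtor, Rptor, Akt1s1, Eif4ebp1 and Eif4e, and Deptor lay below them. Of all genes tested, 41.7%, 43.8% and 43.2% lay above and 46.8%, 43.6% and 44.4% below epithelium in these 3 tumours. Tumour 24 also had 7 above, but with Deptor in place of Mtor, which lay below (42.9% of all genes above, 46.5% below). In tumour 17, Akt1, Akt2, Deptor, Akt1s1 and Eif4ebp1 were above and Mtor, Rptor, Rictor and Eif4e below (43.3% and 44.8% of all genes). In tumour 27, Mtor, Rptor and Rictor were below and the other 6 above (41.0% and 45.4% of all genes). Tumour 20 had Akt1, Akt1s1, Eif4ebp1 and Eif4e above and Mtor, Rptor and Rictor below (41.4% and 45.7% of all genes). Tumour 21 had 6 above, with Rictor, Deptor and Eif4e below (42.7% and 41.4% of all genes). Tumour 4, with its unusual library, had both Akt genes, Mtor, Rptor and Rictor below and the other 4 above (51.7% and 38.3% of all genes). A gene outside the epithelium range in 1 tumour is thus common.

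The 36 pairs of genes were compared over the 9 tumours by Pearson's r of log2 CPM with exact permutation p, and none passed after adjustment over the 36. Unadjusted, 4 pairs had p under 0.05. Mtor ran with Rptor (r = 0.73, Spearman's rho = 0.72, exact permutation p = 0.0159, adjusted 0.269) and with Rictor (r = 0.73, rho = 0.77, exact permutation p = 0.0191, adjusted 0.269). Deptor ran against Mtor (r = -0.71, rho = -0.83, exact permutation p = 0.0224, adjusted 0.269) and against Rptor (r = -0.70, rho = -0.72, exact permutation p = 0.0439, adjusted 0.294). Without tumours 1 and 4, the farthest from the median of Mtor, r was 0.70, 0.69 and -0.91 for the pairs of Mtor with Rptor, Rictor and Deptor. For Rptor with Deptor it was -0.45 without tumours 1 and 5. Without tumour 4 alone, the pair of Mtor and Deptor was the 1 pair that passed (r = -0.92, adjusted exact permutation p = 0.0170). All values of a tumour share its library and scaling.

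**Figure D4:**
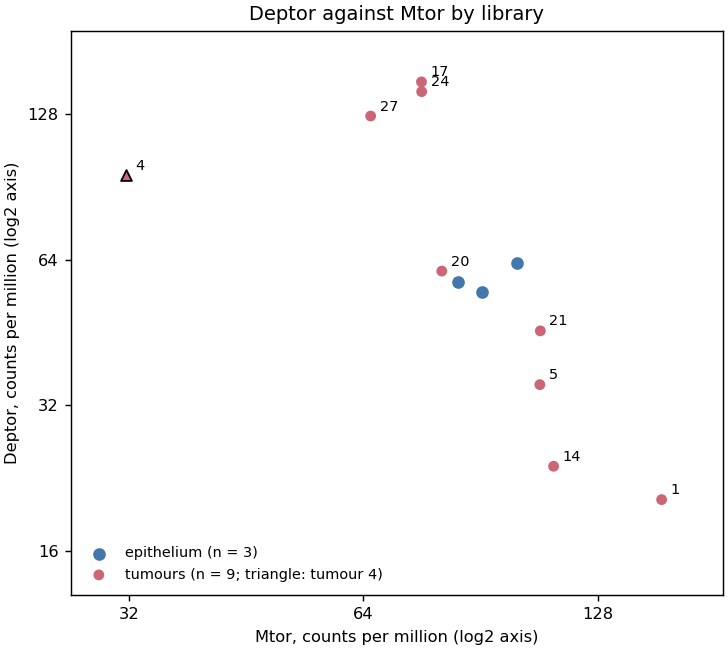
Deptor against Mtor, both in CPM on log2 axes, in 9 tumours (numbered, triangle tumour 4) and 3 epithelium libraries. The 4 tumours with the most Mtor (1, 5, 14 and 21) have the least Deptor, and tumour 4 is low in Mtor and high in Deptor.

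By the likeness of their levels over the 9 tumours, among 11720 genes, the genes closest to Deptor were Chn2 (r = 0.93, rho = 0.93) and Etv1 (r = 0.93, rho = 0.88). Chn2 ran from 0.565 to 148 CPM and Etv1 from 3.92 to 94.7 CPM in tumours, and without tumours 1 and 14 r was 0.83 and 0.82. Those closest to Eif4ebp1 were Pcid2 (r = 0.91) and Aup1 (r = 0.89), and those closest to Akt1s1 were Mir17hg (r = 0.96), the host gene of a microRNA cluster, and Eif3g (r = 0.96), a subunit of a translation initiation factor. Mtor was closest to Gga1 (r = 0.97) and Plekhm2 (r = 0.96), Rptor to Tgfbrap1 (r = 0.97) and Tmem104 (r = 0.96), and Rictor to Dusp7 and Arsa (r = 0.89 for each). Akt1 was closest to Nup93 (r = 0.98) and Sf3b3 (r = 0.97), Akt2 to Tomm34 (r = 0.99) and Gsk3a (r = 0.96), and Eif4e to Pa2g4 (r = 0.96) and Hist1h1b (r = 0.95). These are the highest of 11720 values over 9 points each and describe these libraries only. Without the 2 tumours farthest from the median of the first gene, r was 0.67 for Eif4ebp1 with Aup1. It was 0.78 for Rictor with Dusp7 and with Arsa, and 0.81 to 0.98 for the other pairs. Spearman's rho was lowest for Akt1 with Sf3b3 (0.75) and Eif4ebp1 with Aup1 (0.78).

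Genes within 1 Mb (midpoint to midpoint) with at least 5 CPM were set beside each of the 9 genes. Over the tumours, Pearson's r between a gene and the median deviation of its neighbours was 0.98 for Akt2 and 0.85 for Rptor. It was 0.76 for Mtor, 0.70 for Akt1s1, 0.65 for Eif4e, 0.45 for Eif4ebp1 and 0.25 for Akt1. For Deptor it was 0.0001 and for Rictor -0.14. Such r were not computed without tumour 4 or for other genes. Mtor and the median of its neighbours both had their lowest log2 deviation in tumour 4, -1.34 and -0.71. The 8 neighbours of Deptor did not share its pattern: their median log2 deviation from the tumour median stayed between -0.18 and 0.24, while Deptor ran from -1.57 to 1.30. The 45 neighbours of Rptor had median deviations of 0.82 in tumour 5, -0.55 in tumour 17 and -1.02 in tumour 20, beside 0.92, -0.79 and -0.91 for Rptor, but 0.15 in tumour 1, where Rptor was at 1.25. The 36 neighbours of Akt2 had median deviations of -1.06 in tumour 4 and 0.40 in both tumours 5 and 24, beside -1.29, 0.64 and 0.63 for Akt2. The 6 neighbours of Eif4ebp1 had 0.92 in tumour 14 and 0.58 in tumour 1, beside 1.59 and 0.93 for the gene, and -1.53 in tumour 4, where the gene was at 0.38. Copy number was not measured in these files, and its part was not tested.

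Fold changes over all protein-coding genes fell with exonic length, and the 9 genes differ in length. In 10 length classes of 15599 genes, the median log2 fold change went from 0.83 in the shortest to -0.08 in the longest. Eif4ebp1 (2196 bases of merged exons) and Akt1s1 (3072 bases) are the shortest of the 9, with 0.51 and 0.30 as the medians of their classes, and lay 1.73 and 1.19 above them. Akt1 (4098 bases) lay 0.56 above its class, while Mtor (10109 bases), Rptor (13471 bases) and Rictor (16930 bases) differed by 0.05, 0.48 and -0.26 from the median of the longest class. In the class of Eif4ebp1, 12.8% of genes were called higher, and in that of Akt1s1, 8.14%. The part of length in these fold changes was not tested.

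**Figure D5:**
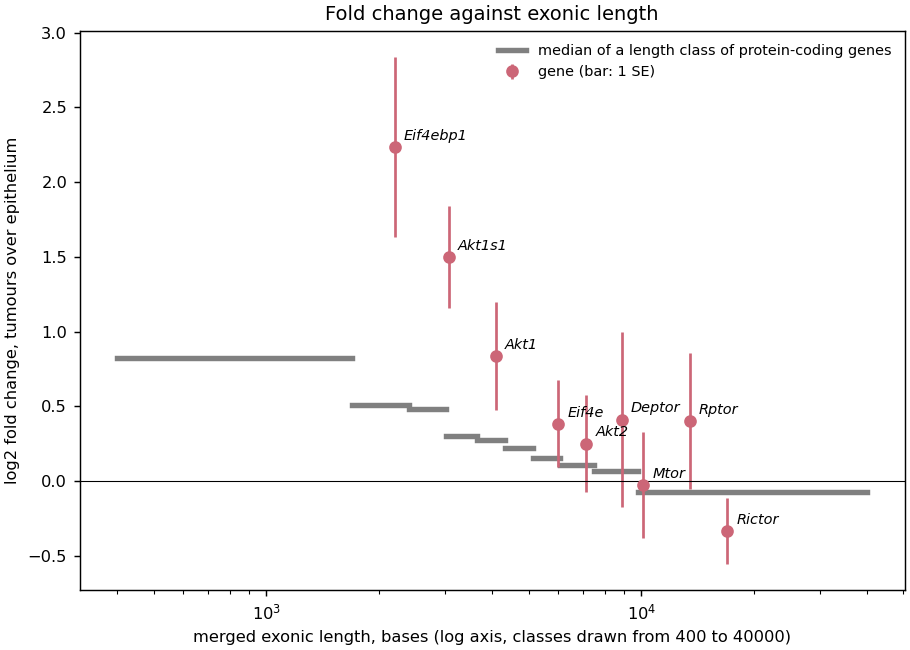
Log2 fold change, tumours over epithelium (points, bars 1 SE), against merged exonic length (log axis) for the 9 genes; grey bars are medians of 10 length classes of 15599 protein-coding genes. The class medians fall from 0.83 to -0.08, and Eif4ebp1 and Akt1s1 lie 1.73 and 1.19 above theirs.

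The wider pathway was described by 4 lists with 53 genes, of which 52 were tested, 3 were higher and 5 lower in tumours. That is 15.4% called, below the 20.3% over all genes. Without epithelium 1, 2 or 3 the counts were 2, 0 and 2, so the calls below rest on having all 3 epithelium libraries. Of 9 other complex subunits and assembly genes, 1 was higher: Prr5, an mTORC2 subunit, with 22.1 ± 9.84 CPM against 6.25 ± 0.707 CPM (log2 fold change 1.82, SE 0.43, edgeR adjusted p = 0.00978). Of 15 lysosomal activators of mTORC1, 1 was higher and 1 lower. Lamtor1, the membrane anchor of the Ragulator complex, had 76.1 ± 19.8 against 31.7 ± 2.81 CPM (1.26, SE 0.28, edgeR adjusted p = 0.00741), and the arginine sensor Slc38a9 had 23.4 ± 6.16 against 47.3 ± 1.51 CPM (-1.02, SE 0.26, edgeR adjusted p = 0.0165).

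Of 15 genes of the cap-binding complex and its regulators, 1 was higher and 1 lower, and both are relatives of Eif4e. Eif4e2 had 106 ± 32 against 50.5 ± 1.96 CPM (log2 fold change 1.07, edgeR adjusted p = 0.0159). Eif4e3 had 6.95 ± 3.37 and 18.6 ± 1.58 CPM (-1.42, edgeR adjusted p = 0.0232). All 9 tumours were above epithelium for Eif4e2, as for 10.2% of all genes tested, and below it for Eif4e3, as for 14.1%. The last list, of S6 kinases and other genes that act downstream of mTOR, had 13 genes tested and a median of -0.10. By edgeR, 3 of these 13 were lower and none higher, also at an unadjusted p under 0.05. That is 23.1% called, near the 20.3% of all genes (11.4% lower, 8.89% higher). They were Lpin1, a lipid phosphatase (-1.14, edgeR adjusted p = 0.0217), Sgk1 (-1.63, edgeR adjusted p = 0.0120) and Sgk3 (-1.12, edgeR adjusted p = 0.0492). Sgk1, a kinase activated by mTORC2, had 79.3 ± 38.5 against 245 ± 67.5 CPM. All 9 tumours lay below epithelium for each of the 3, as for 14.1% of all genes tested. Neither S6 kinase gene passed the test.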

How the data were processed

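Total RNA from 9 mammary tumours and 3 preparations of mammary epithelium was sequenced from stranded TruSeq libraries, per the labels' protocols. The authors deposited raw whole-number counts per gene, with 5 summary rows per library that were left out of library sizes and tests. Tools listed in the submitters' processing notes are TopHat2 2.1.1, HTSeq 0.11.0 and FastQC 0.11.8, on GRCm38; no source used here gives the annotation release or strand setting. Groups and numbers were read from the library titles.

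Counts were fitted in R 4.3.3 with edgeR 4.0.16 (filterByExpr, trimmed mean of M values, robust quasi-likelihood F test, group only, Benjamini-Hochberg over 21456 genes), after testing on simulated data; SE is the size of the log2 fold change divided by the root of F. Alternatives used limma 3.58.1 and DESeq2 1.42.0, other scalings and filters, and each library left out. Ratios and pairs used exact permutation in Python 3.11.15 (scipy 1.17.1), pairs on log2 CPM with a prior count of 2. Positions and lengths came from GENCODE M21, which matched 54106 of 54658 symbols.

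The genes named are all 9 genes, pathway list genes that passed, the 2 genes most alike to each, and Trp53. Eif4ebp2 and Eif4ebp3 were added as relatives of Eif4ebp1. Members and lists were chosen with earlier results of these data known; the length classes, spread of genes of like level, motifs and likeness without 2 tumours were added after values were seen. Libraries of a group differed beyond sampling noise, with a chi-square of at least 24.1 (epithelium) and 217 (tumours) per degree of freedom.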

Additional observations from a re-analysis of the deposited data

How the results depend on the processing

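No paired analysis was made, because the library titles link no tumour to an epithelium preparation. Leaving out a library moved the count of all genes called from 4346 to between 2005 and 5159, of the 9 genes from 2 to between 0 and 3, and of the pathway lists from 8 to between 0 and 12; the lowest of these counts came without an epithelium library. The share of called genes that were higher was 43.9%, 37.2% with upper quartile scaling and 25.2% to 26.8% without an epithelium library. With a covariate for alignments outside genes, a share that does not overlap between the groups and cannot be told apart from them, 658 genes, 0 of the 9 and 1 of the lists were called. DESeq2 called 7398 genes, 2 of the 9 and 13 of the lists, and limma-voom 10616, 4 and 25. Mtor's log2 fold change ran from -0.15 to 0.086 when a library was left out, turning sign without epithelium 3 (0.034) and without tumour 4 (0.086), 17 (0.0028), 24 (0.0011) or 27 (0.020). With the covariate it was 1.29, those of Deptor and Eif4e turned to -0.52 and -0.22, and those of Akt1, Akt2 and Rptor were 1.85, 1.31 and 1.36 in place of 0.84, 0.25 and 0.40, none of them called (adjusted p = 0.132, 0.185 and 0.314); Rictor's was -0.015 in place of -0.34. For ratios, leaving out a library gave log2 differences of 1.45 to 1.86 for Eif4ebp1 to Eif4e, -0.68 to -0.47 for Akt2 to Akt1, -0.044 to 0.52 for Deptor to Mtor and 1.43 to 1.74 for Akt1s1 to Mtor, whose difference of medians was 1.55. Pairs that passed were 0, or 1 without tumour 4. The causes were not tested; without an epithelium library that group has 2 samples. Each of the 9 genes had at least 291 counts in every library; an effect of depth was not tested.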
